A study of Mus musculus with 20 samples.

Results

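Chronic intermittent hypoxia added to myocardial infarction was examined in mouse hearts by comparing the microRNAs (miRNAs) of 7 hearts labelled MI+CIH with those of 4 hearts labelled MI. These are 11 of the 20 small RNA libraries of the study. All miRNAs with at least 5 RPM (reads of the miRNA scaled to a library of 1000000 reads) in at least 4 of the 20 libraries were tested, 360 of the 1545 rows of the deposited table. All mice were C57BL/6J. The MI hearts had an infarction only, and the MI+CIH hearts had an infarction together with CIH, which the labels give as letters and which is read here as chronic intermittent hypoxia. The other libraries came from 5 sham hearts, with neither infarction nor CIH, and 4 hearts with CIH and no infarction. They entered the same statistical fit and give the levels of uninfarcted hearts. The labels name no age, no CIH schedule, no time after infarction and no part of the heart. A heart is a mixture of muscle, fibroblasts, vessels and blood cells, so that fewer cells of a type and less miRNA per cell cannot be told apart.

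Intermittent hypoxia exposes animals to repeated short falls in inhaled oxygen and stands in for the breathing pauses of sleep apnoea in animal work. Disordered breathing in sleep is named by the series title as a factor in the remodelling that follows infarction. A miRNA is cut from a hairpin precursor, is loaded into an Argonaute protein and pairs with messenger RNAs mainly through its seed, bases 2 to 8 from the 5′ end, after which the messenger is repressed. Heart muscle is known for miR-1, miR-133 and the myosin-gene miRNAs miR-208a, miR-208b and miR-499. Fibroblasts and injured tissue are known for miR-21, miR-199a and miR-214.

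The sequences below belong to the miRNAs on which the comparison turns. Of the 360 miRNAs tested, 306 matched a mature sequence in RefSeq (build GRCm38.p6). Capitals mark the seed. The first set holds miR-34b-3p, which passed the test, its relatives, and miRNAs with large differences that did not pass:
miR-34b-3p: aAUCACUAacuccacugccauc
miR-34c-3p: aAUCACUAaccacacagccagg
miR-34a-5p: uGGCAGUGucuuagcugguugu
miR-451a: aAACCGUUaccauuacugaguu
miR-206-3p: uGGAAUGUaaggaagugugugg
miR-200a-3p: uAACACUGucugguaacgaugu
miR-200b-3p: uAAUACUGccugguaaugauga
miR-34b-3p lies at chr9:51103574-51103595 and miR-34c-3p at chr9:51103044-51103065, both on the minus strand. They share the seed AUCACUA and 17 bases counted position by position from the 5′ end, whereas miR-34a-5p at chr4:150068473-150068494 has another seed. The seeds of miR-200a-3p and miR-200b-3p match at 6 of 7 positions. The next set holds the myosin-gene miRNAs, of which miR-208a-3p and miR-208b-3p have the same seed and 19 bases in common by position, and miR-499-5p matches the seed of miR-208a-3p at 6 of 7 positions:
miR-208a-3p: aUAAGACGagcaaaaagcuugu
miR-208b-3p: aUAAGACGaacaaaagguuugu
miR-499-5p: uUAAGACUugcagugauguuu
Being above the MI hearts in at least 5 of the 7 MI+CIH hearts was common, at 145 of all 360 miRNAs (40.3%). The last set is shown because its members were on one side of the MI hearts in at least 5 of the 7 MI+CIH hearts, in tissue repair, cartilage-like matrix, inflammation and a neural miRNA:
miR-21a-5p: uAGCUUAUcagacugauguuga
miR-214-3p: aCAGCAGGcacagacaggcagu
miR-140-3p: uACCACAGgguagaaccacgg
miR-455-3p: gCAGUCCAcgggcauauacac
miR-146b-5p: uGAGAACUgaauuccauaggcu
miR-223-3p: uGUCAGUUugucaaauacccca
miR-155-5p: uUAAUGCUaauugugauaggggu
let-7e-5p: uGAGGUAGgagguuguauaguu
miR-9-5p: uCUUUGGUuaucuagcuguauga
3 mouse hairpins carry the mature sequence of miR-9-5p, and the reads do not tell them apart.

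The infarcted hearts did not form 1 group of like libraries. Clustering of all 20 libraries gave 3 library profiles that the labels do not name: profile A with MI 2 and MI+CIH 1, together with all sham and CIH hearts, profile B with MI 1, MI 3 and MI+CIH 2 to 5, and profile C with MI+CIH 6, MI+CIH 7 and MI 4. Across the 360 miRNAs Pearson's r was 0.908 to 0.984 for 19 pairs of infarcted hearts in the same profile and 0.710 to 0.932 for 36 pairs in different profiles. The profiles were built on these correlations, so that r is a description with no test. Each comparison is therefore given within profile too, where MI+CIH 1 faces 1 MI heart, MI+CIH 6 and 7 face 1, and MI+CIH 2 to 5 face 2. Reads per library ran from 1991323 (MI+CIH 4) to 18138415 (MI 4), and the infarcted libraries of profile B were all below those of the other profiles. In profile A the labels and the libraries match less well. MI 2 lay within the range of sham 2 to 5 for 55% of the 360 miRNAs, against 35% for sham 1 and 28.3% for MI+CIH 1. Sham 1 had an r of 0.986 with MI+CIH 1, above the 0.966 of its mean with sham 2 to 5. The mean r with sham 2 to 5 was 0.985 for MI 2 and 0.956 for MI+CIH 1. Without MI 2, MI+CIH 1 and sham 1 the fit with the profile term called 4 miRNAs, all higher in MI+CIH: miR-34b-3p, miR-34c-3p, miR-375-3p and miR-451a. Nothing in the labels says that the replicates were separate animals, so p-values measure the spread between these samples.

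Without regard to profile, none of the 360 miRNAs passed the test (0%): limma fitted to log2(RPM + 1) gave a smallest Benjamini-Hochberg adjusted p of 0.338. At an unadjusted limma p under 0.05 there were 17, of which 16 were higher in MI+CIH. The recovered reads gave 0 calls in edgeR and in DESeq2, with 15 and 22 at an unadjusted p under 0.05. With library profile as a term, 2 of 360 passed (0.556%), and 48 had an unadjusted limma p under 0.05, 42 higher and 6 lower. The median standard error on the log2 scale was 0.62 in the first fit and 0.34 in the second. The profiles were derived from the same expression values, so a lower residual spread in the second fit is built in, and its p-values, those of the 2 calls included, treat the profiles as known in advance. In all that follows "within-profile change" is the log2 difference MI+CIH minus MI in the fit with the profile term, and only the 2 called miRNAs are said to have risen.

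Most miRNAs had a positive change in RPM, which is a share of the library. The within-profile change was positive for 267 of 360 (74.2%) with a median of 0.27. After median-of-ratios scaling it was positive for 171 with a median of -0.03, and after TMM scaling for 163 with a median of -0.06. Changes below are on the RPM scale, so the median of 0.27 is the level to read them against, and a change that turns sign under another scaling is marked.

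Comparing single hearts, 16 miRNAs (4.44%) were above every MI heart of the profile in all 7 MI+CIH hearts and 3 (0.833%) were below in all 7. A further 42 were above in 6 of 7, and MI+CIH 4 was the heart that did not follow in 29 of these 42. This heart, with the fewest reads, was above its MI hearts for 111 miRNAs and below for 156, whereas the other MI+CIH hearts of profile B were above for 158 to 194 and below for 55 to 71. After median-of-ratios scaling the counts for all 7 hearts were 6 above and 9 below, and after TMM scaling 3 above and 11 below.

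**Figure D1:**
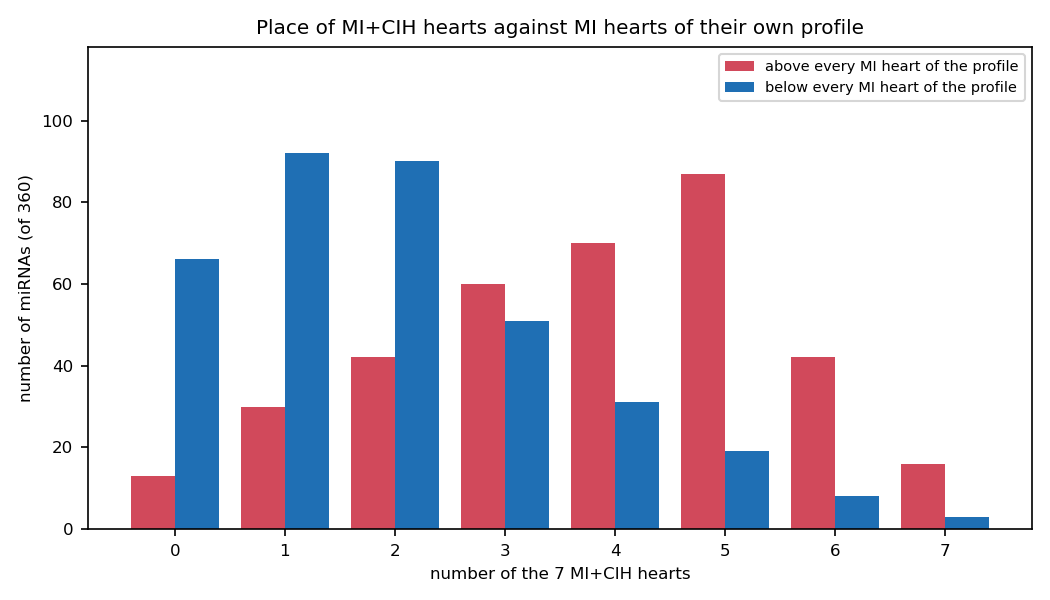
Number of miRNAs (y axis, of 360) by how many of the 7 MI+CIH hearts lay above (red) or below (blue) every MI heart of their own library profile, in RPM (x axis). All 7 hearts were above for 16 miRNAs and below for 3, and the red bars peak at 5 hearts and the blue bars at 1.

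miR-375-3p, a miRNA of islet cells and epithelia, rose within profile. Its level was at 17.9, 0.345, 7.97 and 0.882 RPM in MI 1 to 4 and at 1.78, 26.5, 33.6, 101, 41.97, 18.98 and 14.8 RPM in MI+CIH 1 to 7. Each MI+CIH heart was above the MI hearts of its profile, although MI 1 was above MI+CIH 1 and 7 of other profiles. The MI 2 and MI 4 values are 5 and 16 reads, and sham hearts had 0 to 0.526 RPM. The within-profile change was 2.03 (SE 0.42, limma adjusted p = 0.0284), a 4.09-fold difference in RPM + 1, and the change between group means was 2.35 (SE 0.77, limma adjusted p = 0.442). Its size depends on the 1 RPM added, since MI 2 and MI 4 were below that. With 0.5 RPM added the within-profile change was 2.24, and with 5 RPM added 1.39.

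miR-34b-3p, of the p53-linked miR-34 family, was the other miRNA that rose. Its values were 12.5, 1.38, 4.13 and 4.91 RPM in MI 1 to 4 and 3.00, 11.9, 34.1, 35.2, 41.8, 57.9 and 52.3 RPM in MI+CIH 1 to 7. It was above the MI hearts of its profile in 6 of 7, the exception being MI+CIH 2, which lay just under MI 1. The within-profile change was 1.97 (SE 0.42, limma adjusted p = 0.0284), a 3.93-fold difference in RPM + 1, against 2.24 (SE 0.63, limma adjusted p = 0.338) between group means. With 0.5 RPM added in place of 1 RPM the within-profile change was 2.07, and with 5 RPM added 1.51. Neither call held after TMM scaling, where the limma adjusted p was 0.0938 for miR-375-3p and 0.11 for miR-34b-3p, or without MI 4, where it was 0.173 for each. Both were also lost without MI 3 and without MI+CIH 5, 6 or 7, and that of miR-34b-3p without MI+CIH 3, with limma adjusted p from 0.0565 to 0.155. Without MI 2 and MI+CIH 1 the change was 2.28 for each, with a limma adjusted p of 0.0181.

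Several other settings of the analysis also ended both calls. With only the 11 infarcted libraries the limma adjusted p was 0.26 for each, and with the replicate number as a block it was 0.316 for each. It was 0.105 for each with median-of-ratios scaling, 0.106 for each without the filter, and 0.0639 for miR-375-3p and 0.0657 for miR-34b-3p with a pseudocount of 0.5 RPM. edgeR with the profile term gave changes of 2.25 for miR-375-3p and 1.77 for miR-34b-3p, with adjusted p of 0.295 and 0.304. DESeq2 with the profile term gave no adjusted p for either. With quality weights the limma adjusted p was 0.00302 for miR-375-3p and 0.00594 for miR-34b-3p, and with a pseudocount of 5 RPM it was 0.0191 for each.

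Members of the miR-34 family from the same locus had differences of like size that did not pass. miR-34c-3p was at 8.07, 0.828, 2.36 and 1.54 RPM in MI 1 to 4 and at 1.61, 9.79, 12.7, 10.5, 50.98, 25.9 and 24.96 RPM in MI+CIH 1 to 7, above the MI hearts of its profile in 7 of 7. Its within-profile change was 1.88 (SE 0.49, limma adjusted p = 0.117). The MI values are few reads, 8 in MI 3 and 12 in MI 2. The other arm of the hairpin, at higher levels, had a positive change that did not pass either. miR-34c-5p was at 106, 51.98, 28.3 and 56.6 RPM in MI and at 233, 186, 85.8, 59.8, 589, 658 and 1027 RPM in MI+CIH, with MI+CIH 3 and 4 inside the MI range and MI+CIH 5, 6 and 7 far above it. Its change was 2.24 (SE 0.67, limma adjusted p = 0.154).

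miR-34a-5p, which comes from a hairpin on another chromosome, stood apart from these. Its values were 122, 17.8, 54.03 and 69.02 RPM in MI and 43.7, 150.4, 53.6, 24.1, 104, 85.5 and 103 RPM in MI+CIH, and the groups overlapped almost entirely. The change was 0.23 (SE 0.43, limma adjusted p = 0.842) and was negative after both scalings and without MI 2. Of the 4 tested members of the miR-34 list all had a positive change in RPM and 3 of 4 after both scalings, with a list median of 1.93 against 0.27 over all 360, and 1 passed the test.

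**Figure D2:**
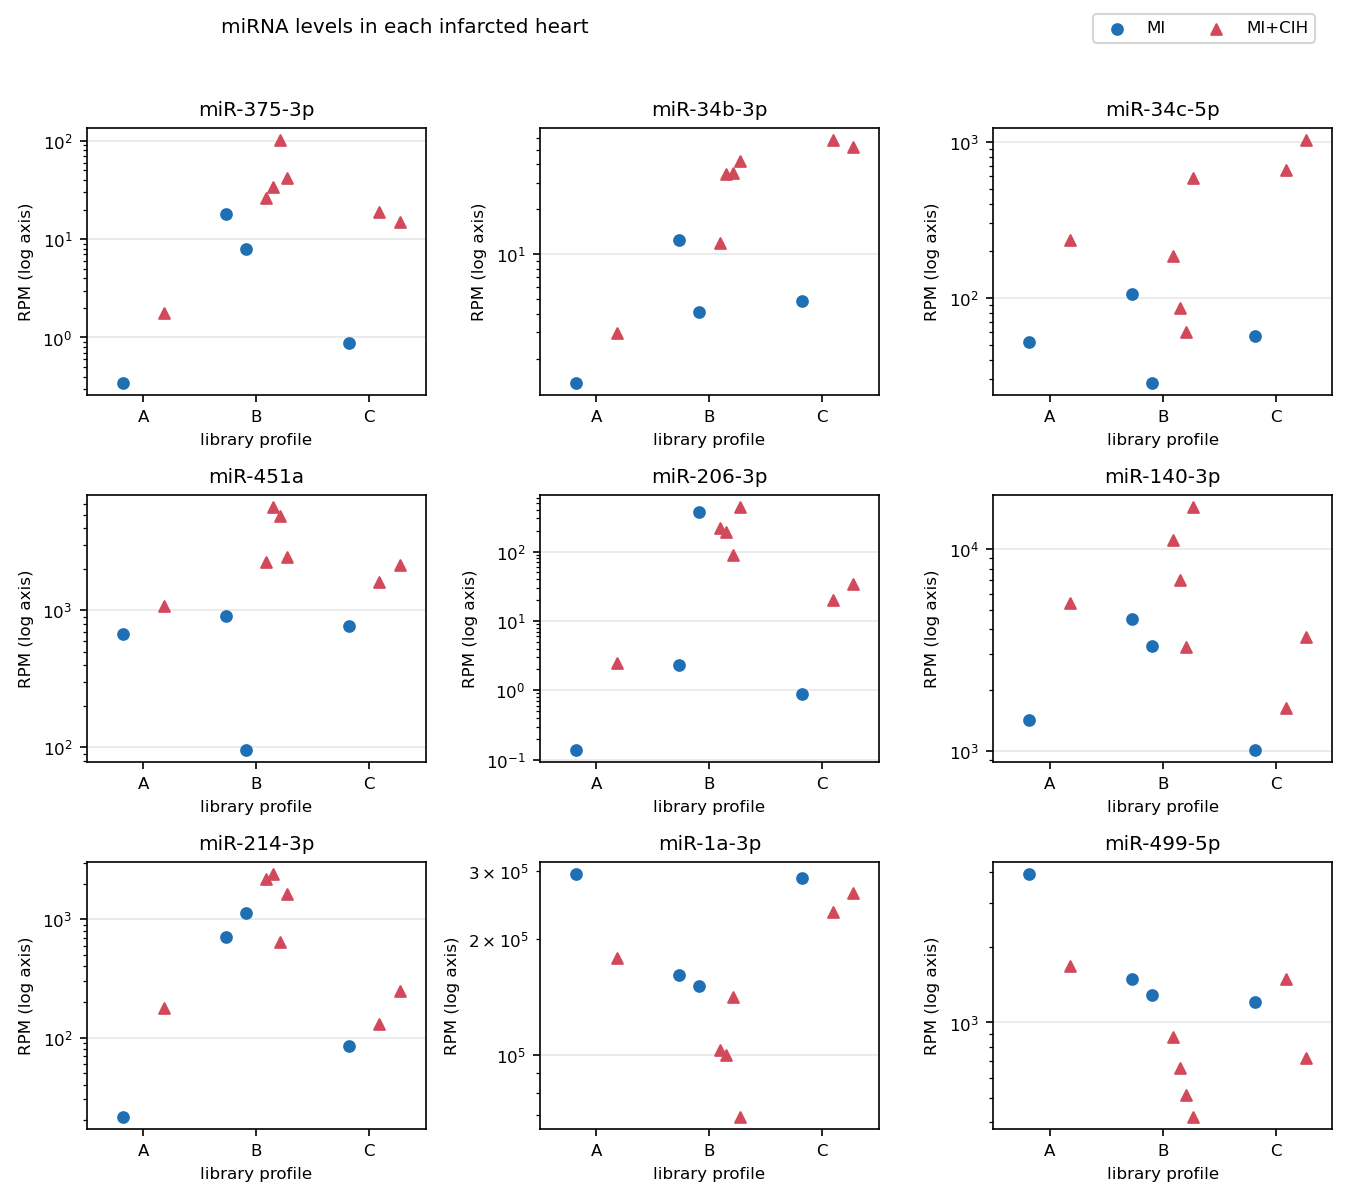
Levels of 9 miRNAs in each of the 11 infarcted hearts (y axes, RPM, log scale), by library profile (x axes). Blue circles are MI hearts and red triangles MI+CIH hearts. For miR-375-3p every triangle is above the circles of its profile, and for miR-1a-3p every triangle is below them.

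miR-206-3p, a miRNA of skeletal muscle, had the highest within-profile change of the named miRNAs in limma on log2(RPM + 1). It was at 2.29, 0.138, 370.2 and 0.882 RPM in MI 1 to 4 and at 2.44, 217, 189, 89.9, 437, 20.1 and 33.7 RPM in MI+CIH 1 to 7, with 2 reads in MI 2. MI 3 alone among the MI hearts was high, above all but MI+CIH 5. The within-profile change was 2.69 (SE 0.84, limma adjusted p = 0.154). Without MI 3 it was 4.12 with a limma adjusted p of 0.00163, and without MI 1 it was 1.35 with a limma adjusted p of 0.343. With quality weights it was 3.20 with a limma adjusted p of 0.00374. edgeR with the profile term gave 1.27 with an adjusted p of 0.8, below the 2.25 of miR-375-3p. miR-133b-3p, made from the same locus within 10 kb, had a change of -0.27 (SE 0.66, limma adjusted p = 0.854), with 458, 96.02, 88.3 and 141 RPM in MI and 130.3, 365, 58.0, 27.6, 513, 110.4 and 151 RPM in MI+CIH. Sham hearts had 0 to 0.183 RPM of miR-206-3p and 95.8 to 194 RPM of miR-133b-3p.

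miR-451a, the main miRNA of red blood cells, was above the MI hearts of its profile in 7 of 7 MI+CIH hearts, 1 of 16 such miRNAs among the 360 (4.44%). It was at 916, 669, 95.7 and 763 RPM in MI 1 to 4 and at 1076, 2248, 5679.5, 4915, 2455, 1623 and 2139 RPM in MI+CIH 1 to 7. The within-profile change was 2.38 (SE 0.63, limma adjusted p = 0.117), and without the low MI 3 it was 1.40 with a limma adjusted p of 0.325. The sham hearts ran from 307 to 3078 RPM, which covers both groups except MI 3 below and MI+CIH 3 and 4 above.

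The other red cell miRNAs had smaller changes, and their difference from miR-451a was not tested. Its neighbours within 10 kb, miR-144-3p and miR-144-5p, had changes of 0.51 (SE 0.49, limma adjusted p = 0.623) and 0.26 (SE 0.57, limma adjusted p = 0.854), each above the MI hearts in 4 and below in 3. miR-486a-5p, which red cells and muscle both make, was at 4475, 329, 7029.9 and 1621 RPM in MI and 299.5, 5655, 7920.3, 10305, 2616, 1409 and 858 RPM in MI+CIH, with a change of -0.14 (SE 0.35, limma adjusted p = 0.854). Of the 6 tested members of the erythrocyte list 3 had a positive change and 3 a negative one, with a median of 0.06. After TMM scaling 2 were positive, and an arm of miR-144 had turned negative. The list sum, without the repeated entry, ran from 1392 to 14363 RPM in MI and from 1745 to 25851 RPM in MI+CIH.

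Epithelial miRNAs of the miR-200 family had their largest difference between MI+CIH and MI in profile C, although no variation between profiles was called. miR-200a-3p was at 123, 34.2, 13.6 and 12.3 RPM in MI 1 to 4 and at 55.4, 29.7, 76.5, 138, 228, 223 and 152 RPM in MI+CIH 1 to 7. miR-200b-3p was at 256, 23.9, 25.4 and 14.1 RPM in MI and 30.9, 41.5, 215, 547, 273, 201 and 160.1 RPM in MI+CIH. MI 1 was above 3 of the 7 MI+CIH hearts for miR-200a-3p and above 5 for miR-200b-3p. For each, 5 of 7 MI+CIH hearts were above the MI hearts of their profile and 0 below. The changes were 1.76 (SE 0.67, limma adjusted p = 0.262) and 1.68 (SE 0.73, limma adjusted p = 0.296), and the difference of miR-200b-3p between group means (1.87) was -0.13 when libraries were weighted by quality. The 4 miRNAs of the cluster at chr4:156053916-156055706 all had positive changes, from 0.94 to 1.76 with a median of 1.60, and this held after both scalings.

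These miRNAs and miR-375-3p belong to a list of other tissues that could be carried with a heart. Of its 13 tested members 10 had a positive change in RPM and 6 after either scaling, with a median of 0.28 that is close to the median of all miRNAs. miR-205-5p, a miRNA of squamous epithelium, was at 91.01, 1.04, 2.66 and 20.2 RPM in MI and 1.67, 0.612, 16.6, 36.7, 36.9, 18.5 and 17.98 RPM in MI+CIH, a change of -0.16 (SE 0.77, limma adjusted p = 0.899). MI 1, which had the most miR-200b-3p of the MI hearts, also had the most miR-205-5p. The list sum ran from 629.9 to 1617 RPM in MI and from 838.5 to 1734 RPM in MI+CIH. The defining liver miRNA miR-122-5p was at 2.18, 0.138, 19.5 and 4.63 RPM in MI and 0.278, 3.52, 20.96, 10.04, 22.8, 2.72 and 2.55 RPM in MI+CIH, and the neural miR-124-3p, below the filter, was at 0 in 3 of 11 hearts and at most 5.31 RPM. Epithelial miR-141-3p, also below the filter, was at 0 in 2 of 11 and at most 11.9 RPM. The part of such tissue in the miR-375-3p result was not tested.

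Most miRNAs of heart muscle had a negative change. miR-1a-3p, the most abundant miRNA of heart muscle, was at 161002, 293893, 150800 and 287381 RPM in MI 1 to 4 and at 178754, 102847, 99922, 141425, 69203, 234531 and 262684 RPM in MI+CIH 1 to 7. All 7 MI+CIH hearts were below the MI hearts of their profile, while between profiles the groups overlapped. The within-profile change was -0.54 (SE 0.17, limma adjusted p = 0.154). The row miR-1b-5p repeats these reads. In sum the muscle list held 165021 to 301250 RPM in MI and 89541 to 269842 RPM in MI+CIH without that repeat. Most of this sum was miR-1a-3p, so that its place below every MI heart of the profile in 7 of 7 is no separate result.

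The myosin-gene miRNAs with like seeds did not pass the limma test in RPM, and differences between them were not tested. miR-499-5p, from an intron of Myh7b, was at 1496, 3919.8, 1283 and 1202 RPM in MI and 1683, 877, 659, 512, 419, 1490 and 719.8 RPM in MI+CIH, below the MI hearts in all but MI+CIH 6. Its change was -0.95 (SE 0.32, limma adjusted p = 0.171). miR-208a-3p, from the alpha myosin gene Myh6 of the adult mouse ventricle, was at 26.6, 58.5, 28.6 and 100.5 RPM in MI and 84.99, 16.7, 6.34, 3.01, 11.2, 93.2 and 42.5 RPM in MI+CIH. The 4 MI+CIH hearts of profile B were below MI 1 and MI 3 while MI+CIH 1 was above MI 2. The lowest values, those of MI+CIH 3 and 4, were 13 and 6 reads. The change of miR-208a-3p was -0.97 (SE 0.42, limma adjusted p = 0.301).

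miR-208b-3p, with the same seed, comes from the beta myosin gene Myh7, which the stressed heart turns on. It was at 4.90, 9.18, 22.1 and 14.8 RPM in MI and 99.3, 8.87, 16.1, 3.52, 26.5, 16.5 and 31.4 RPM in MI+CIH, with a change of 0.84 (SE 0.66, limma adjusted p = 0.53) that was 0.23 without MI+CIH 1. Of the 10 tested members of the muscle list 8 had a negative change and 2, miR-206-3p and miR-208b-3p, a positive one, with a median of -0.54, and the counts were the same after both scalings. None passed the limma test in RPM, whereas DESeq2 with the profile term called miR-499-5p and miR-208a-3p lower. Limma called miR-1a-3p, its repeat and miR-206-3p with quality weights, and miR-1a-3p and its repeat without MI+CIH 4. The change of miR-1a-3p was -0.50 (adjusted p = 0.0322) and -0.62 (adjusted p = 0.0463) in these limma fits. miR-133a-3p had a change of -0.16 (SE 0.26, limma adjusted p = 0.816), with 22118, 2846, 12229 and 6725 RPM in MI and 2776, 23097, 12926, 8427, 18769.5, 5345 and 5987 RPM in MI+CIH.

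Leading miRNAs of fibroblasts and tissue repair were above the MI hearts in 6 of 7 MI+CIH hearts, and the exception was the same heart. miR-214-3p was at 708, 21.3, 1135 and 85.1 RPM in MI 1 to 4 and at 178, 2179.6, 2407, 643, 1625, 129.5 and 248 RPM in MI+CIH 1 to 7. miR-21a-5p, which is raised in fibrosis and after injury, was at 20198, 17547, 15334 and 7732 RPM in MI and 108142, 49332, 27089.9, 8888, 70676, 10319.7 and 44349 RPM in MI+CIH. Only MI+CIH 4 was below its MI hearts for each of them. The changes were 1.30 (SE 0.51, limma adjusted p = 0.262) and 1.33 (SE 0.53, limma adjusted p = 0.262), positive after both scalings. The level of miR-21a-5p in MI+CIH 1 is close to the highest of the sham hearts, 100570 RPM, and far from MI 2.

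miR-199a comes with miR-214 from a cluster at chr1:162217844-162223459. Its 4 tested miRNAs had changes of 0.78 to 1.36, with a median of 1.07 that was positive after both scalings for all 4. miR-199a-3p was at 1162, 241, 998 and 3209 RPM in MI and 753, 2909, 1940.5, 565, 2786, 3684 and 4539 RPM in MI+CIH, with a change of 0.78 (SE 0.44, limma adjusted p = 0.403). Of 5 tested members of the miR-199/miR-214 list all had a positive change and 0 passed the test.

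The cartilage and matrix miRNAs miR-140 and miR-455 were also above the MI hearts in most MI+CIH hearts. Of all 360 miRNAs 145 (40.3%) were above in at least 5 of 7. miR-140-3p was at 4514, 1425, 3305 and 1009 RPM in MI and 5394, 11065, 7026, 3271, 16132, 1624 and 3657 RPM in MI+CIH, above in all but MI+CIH 4, with a change of 1.28 (SE 0.41, limma adjusted p = 0.154). miR-140-5p, the other arm, was at 38.5, 63.6, 25.7 and 111 RPM and 191, 72.98, 64.3, 30.1, 84.3, 179.7 and 154 RPM, with a change of 0.94 (SE 0.32, limma adjusted p = 0.171). miR-455-3p was at 121, 10.4, 168 and 51.7 RPM in MI and 24.9, 192, 402, 275, 180.5, 66.6 and 88.1 RPM in MI+CIH, above in 7 of 7, with a change of 0.81 (SE 0.31, limma adjusted p = 0.262). The levels of miR-455-3p follow the profiles more than the groups, since MI 1 and MI 3 were above MI+CIH 1, 6 and 7.

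Most miRNAs of white blood cells and inflammation had a positive change. miR-146b-5p, which dampens NF-kappaB signalling, was at 473, 103, 314 and 323 RPM in MI 1 to 4 and at 403, 577, 890.05, 405, 1628, 416 and 1477 RPM in MI+CIH 1 to 7, above the MI hearts in 6 of 7 and below in 0. Its change was 1.26 (SE 0.41, limma adjusted p = 0.154). miR-146a-5p, with the same seed and 20 bases in common by position, had a change of 0.55 (SE 0.36, limma adjusted p = 0.476).

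miR-223-3p, of granulocytes and macrophages, was at 31.9, 5.66, 14.5 and 18.8 RPM in MI and 17.5, 24.3, 48.7, 24.1, 84.3, 19.1 and 79.6 RPM in MI+CIH, with a change of 1.02 (SE 0.39, limma adjusted p = 0.262), above in 5 and below in 0. miR-155-5p, of activated leukocytes, was at 182, 16.4, 208 and 67.6 RPM in MI and 18.3, 209, 343, 236, 480.4, 83.4 and 114 RPM in MI+CIH and was above in 7 of 7, but by little, with a change of 0.50 (SE 0.28, limma adjusted p = 0.403). miR-150-5p, of mature lymphocytes, had a change of -0.34 and was below in 5 of 7, whereas miR-342-3p, also of lymphoid cells, had a change of 0.55 and was above in 7 of 7. No difference between myeloid and lymphoid miRNAs was tested. Of 9 tested leukocyte miRNAs 8 had a positive change, also after both scalings, with a median of 0.55, and 0 passed. The list sum ran from 378.1 to 2945 RPM in MI and from 1054 to 4488 RPM in MI+CIH, and the lowest value is that of MI 2.

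No vessel miRNA passed the test. The endothelial miR-126a-3p was at 6729, 6263, 4809 and 47116 RPM in MI and 5357, 5395, 4692, 2875, 5661, 49894 and 24286 RPM in MI+CIH, far higher in profile C than elsewhere, with a change of -0.34 (SE 0.23, limma adjusted p = 0.481). miR-126b-5p was at 89.2, 110.1, 42.8 and 369 RPM in MI and 71.7, 57.2, 7.80, 4.52, 56.4, 483 and 203 RPM in MI+CIH, with MI+CIH 3 and 4 lowest (16 and 9 reads). Its change was -1.06 (SE 0.59, limma adjusted p = 0.403), and -1.32 after either scaling. All 4 endothelial rows, 2 of which hold the same reads, had a negative change in RPM and after both scalings. The smooth muscle miRNA miR-145a-5p was above in 7 of 7, with 2876, 742, 2807 and 1405 RPM in MI, 1172, 4279, 3406, 4813, 3424, 2252 and 2045 RPM in MI+CIH and a change of 0.55 (SE 0.26, limma adjusted p = 0.354), while its other arm miR-145a-3p had -0.18. miR-143-3p, from the same locus, had a change of 0.44 (SE 0.19, limma adjusted p = 0.296), and the sign of its difference between group means (0.33) was negative under median-of-ratios (-0.13) and TMM (-0.20) scaling.

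miR-210 is best known as a target of hypoxia-inducible factor, and its groups overlapped. miR-210-3p was at 23.8, 5.94, 13.6 and 17.4 RPM in MI and 17.1, 62.3, 17.5, 5.52, 68.99, 17.8 and 42.05 RPM in MI+CIH, above in 5 of 7, with MI+CIH 2, 5 and 7 highest and MI+CIH 4 below every MI heart. The change was 0.72 (SE 0.54, limma adjusted p = 0.507). The other arm, miR-210-5p, was near the detection limit, at 3.60, 0.069, 2.07 and 1.10 RPM in MI and 0.777, 7.50, 10.2, 5.52, 11.4, 0.756 and 2.87 RPM in MI+CIH, above in 6 of 7, with a change of 0.93 (SE 0.27, limma adjusted p = 0.154). Sham hearts had 4.21 to 11.9 RPM and hearts with CIH alone 0.967 to 6.41 RPM of miR-210-3p.

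miR-9-5p, best known from neurons, had a negative change whose call depended on the scale, the tool, the weights and the libraries. It was at 263, 129, 732 and 106 RPM in MI 1 to 4 and at 83.4, 193, 262, 271, 202, 80.1 and 58.3 RPM in MI+CIH 1 to 7. MI 3 was far above the others, and 6 of 7 MI+CIH hearts were below their MI hearts and 0 above. The change was -0.79 (SE 0.25, limma adjusted p = 0.154) in RPM, and -1.14 with an adjusted p of 0.0232 after TMM scaling. edgeR gave -1.18 with an adjusted p of 0.0296 and DESeq2 -1.22 with an adjusted p of 0.0044, each with the profile term. In RPM the limma change was -0.69 with an adjusted p of 0.0356 with quality weights, and -1.05 with an adjusted p of 0.0366 without MI 1. Without MI 3 the limma change was -0.45 with an adjusted p of 0.494. The row miR-9b-3p repeats its reads.

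Of the 16 miRNAs above the MI hearts in all 7 MI+CIH hearts, those not yet named had small steps within wide differences between profiles. let-7e-5p was at 1565, 61.6, 1436 and 314 RPM in MI and 117, 1919, 4624, 3355, 2038, 375 and 453 RPM in MI+CIH, with a change of 0.77 (SE 0.30, limma adjusted p = 0.262). miR-221-3p, which acts in vessel wall cells, was at 332, 41.5, 536 and 144 RPM in MI and 80.3, 578, 838, 559, 574, 167 and 206 RPM in MI+CIH, with a change of 0.59 (SE 0.24, limma adjusted p = 0.263). miR-574-3p was at 356, 16.6, 471 and 65.5 RPM in MI and 58.7, 489.6, 1275, 514, 567, 73.8 and 66.7 RPM in MI+CIH, with MI+CIH 7 barely above MI 4. The remaining members were miR-10a-5p, miR-98-5p, miR-134-5p, miR-342-3p, miR-365-3p, miR-532-5p and miR-668-3p, with changes of 0.33 to 0.80, of which that of miR-98-5p was -0.01 after TMM scaling. Below in all 7, beside miR-1a-3p and its repeat, was miR-135a-5p at 3.49, 8.28, 3.54 and 5.62 RPM in MI and 3.66, 2.60, 2.92, 1.51, 2.55, 3.93 and 2.05 RPM in MI+CIH, a change of -0.63 (SE 0.33, limma adjusted p = 0.376).

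The miRNAs of the imprinted Dlk1-Dio3 region, a large cluster on chromosome 12 that is active in the embryo and in injured tissue, had changes of 1 sign. All 41 tested members had a positive change, from 0.01 to 0.77 with a median of 0.52, and 37 of 41 were positive after either scaling. None passed, and 33 of 41 were above the MI hearts in at least 5 of 7, against 145 of all 360 (40.3%). The let-7 list, miRNAs of differentiated cells, had 10 of 10 positive in RPM with a median of 0.36, but 6 and 5 of 10 after median-of-ratios and TMM scaling. The miR-17/92 list, linked to cell division, had 9 of 9 positive with a median of 0.30 and 4 of 9 after either scaling. Neither list's median was far from the 0.27 of all miRNAs.

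The miR-30 miRNAs, plentiful in cardiac muscle, were on the other side. Of its 11 tested members 9 had a negative change in RPM and 10 after either scaling, with a median of -0.19. miR-30d-5p, its most abundant member, was at 49269.8, 30239, 31977 and 26853 RPM in MI and 23152, 42403, 32313, 37781, 32259.6, 27128 and 15619 RPM in MI+CIH, a change of -0.26 (SE 0.22, limma adjusted p = 0.587). The 4 miRNAs with the miR-181 seed were all negative under each scaling, with an RPM median of -0.23. The lists miR-29 (4 of 5 positive in RPM, 2 of 5 after either scaling), miR-15/16 (8 of 10, then 5 of 10) and miR-23/27/24 (7 of 9, then 2 and 1 of 9) changed their count with the scaling, and 0 members of them passed.

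**Figure D3:**
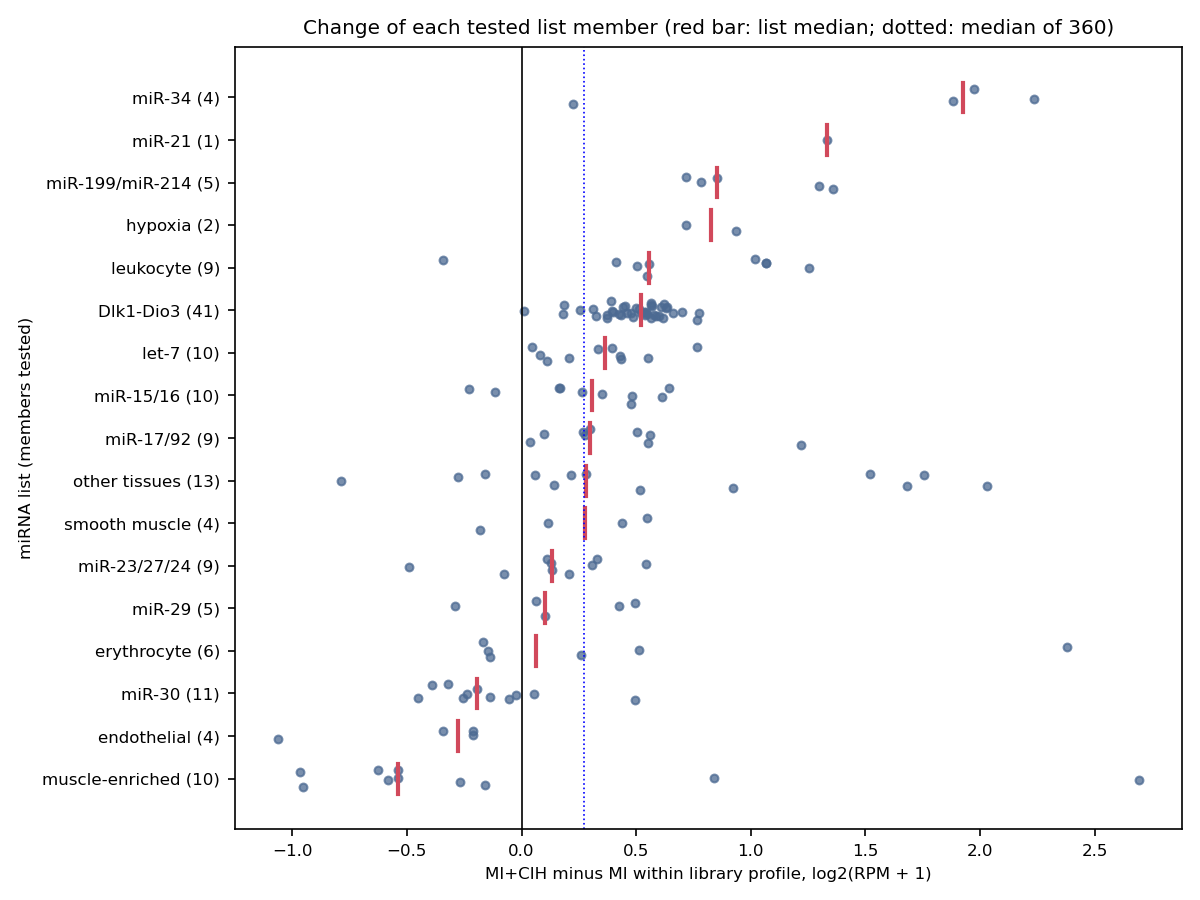
Within-profile change (x axis, MI+CIH minus MI, log2(RPM + 1)) of every tested member of 17 miRNA lists (y axis, number tested in brackets). Red bars are list medians and the dotted line is the median of all 360, 0.27. The miR-34 list has the highest median, 1.93, and the muscle-enriched list the lowest, -0.54.

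The profiles gave 3 separate differences between MI+CIH and MI. The median difference was 0.50 in profile A, 0.22 in B and 0.13 in C, and 275, 250 and 216 miRNAs were positive. All 3 differences were positive for 159 miRNAs (44.2%) and negative for 37 (10.3%). Across the 360 miRNAs, which are not independent, the differences of A and B had a Pearson's r of 0.14, those of A and C 0.46 and those of B and C 0.43. A test of whether the difference varied between profiles called 0 miRNAs (0%) in limma, with 3 at an unadjusted p under 0.05 and a smallest adjusted p of 0.999. No other tool was run for it.

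Single miRNAs had their largest difference in different profiles, which is a description of few hearts, since no variation between profiles was called. miR-34b-3p differed by 0.75 in profile A, 1.80 in B and 3.25 in C, and miR-375-3p by 1.05, 1.80 and 3.24. miR-214-3p and miR-21a-5p had their largest difference in profile A, 3.00 and 2.62, which is MI+CIH 1 against MI 2, where labels and libraries match less well. In B and C they differed by 0.77 and 1.07, and by 0.78 and 1.47. Without MI 2 and MI+CIH 1 the changes were 0.87 and 1.01, with limma adjusted p of 0.736 and 0.708. miR-451a differed most in B, by 3.57, where MI 3 is low. miR-208a-3p was 0.53 higher in A and 1.68 lower in B.

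**Figure D4:**
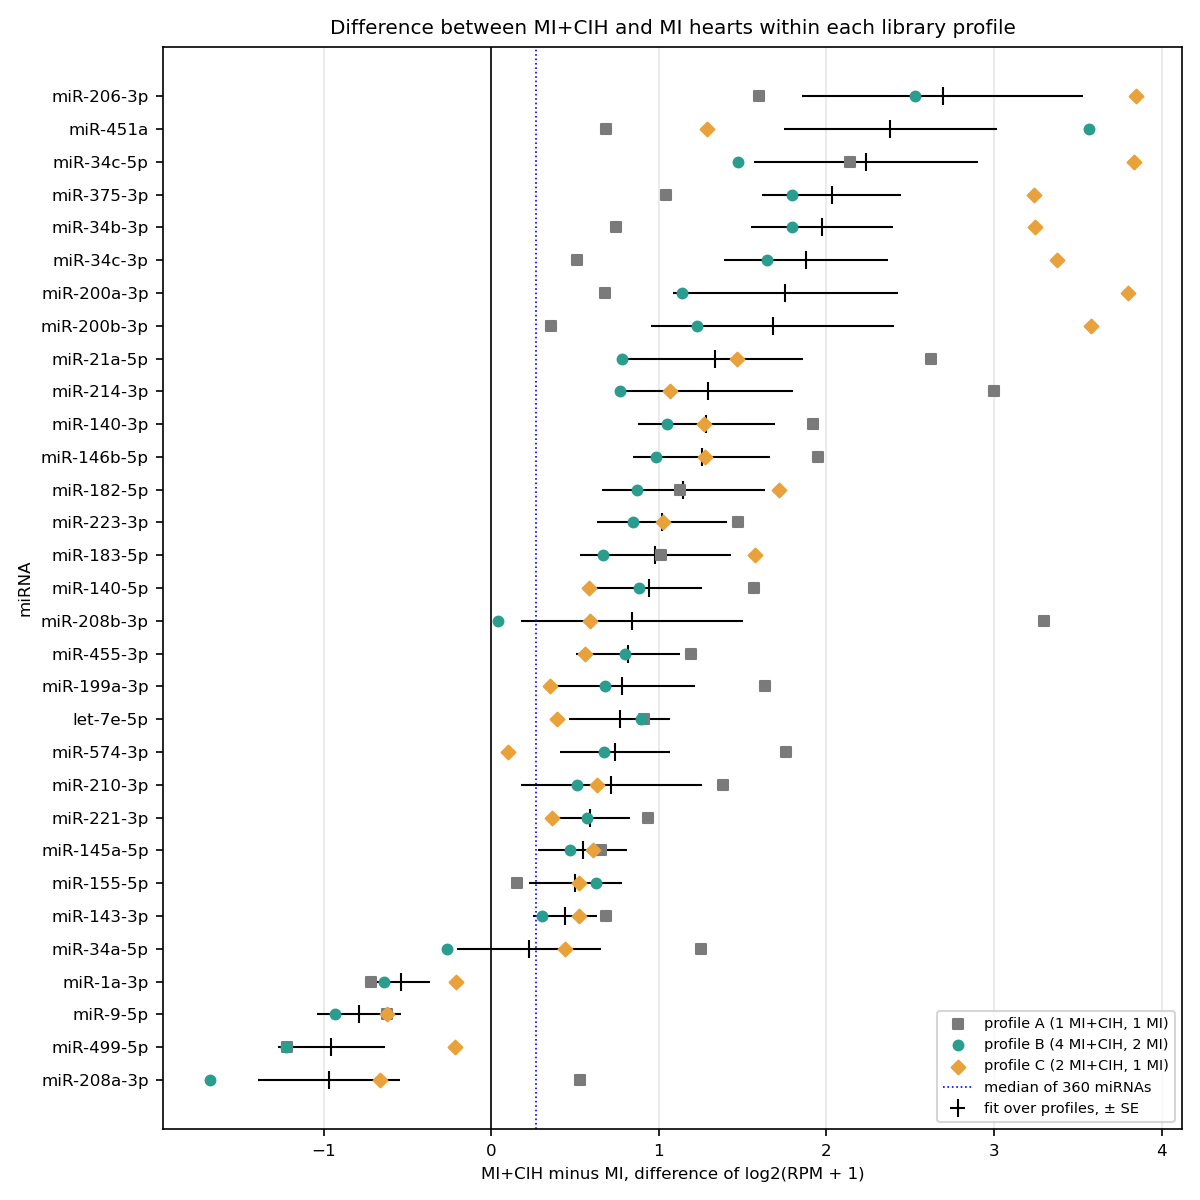
MI+CIH minus MI difference of log2(RPM + 1) (x axis) for 31 miRNAs (y axis) in profile A (grey squares), B (green circles) and C (orange diamonds), with the fit over profiles ± SE (black) and the median of all 360 miRNAs (dotted). The miR-34b and miR-34c hairpins, miR-375-3p and the miR-200 miRNAs differ most in profile C, and miR-214-3p and miR-21a-5p in profile A.

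The arms of a hairpin and the members of a seed group were counted over all tested miRNAs, from the same within-profile changes. Of 79 hairpins with both arms tested, the within-profile changes had the same sign in 60, 51 both positive and 9 both negative, and opposite signs in 19. As 267 of all 360 miRNAs (74.2%) were positive, many arms share a sign in any case. Arms were counted in RPM only, and some, such as miR-125b-5p of Mir125b-1 and Mir125b-2, belong to more than a single hairpin. Among the 306 miRNAs with a RefSeq sequence there were 246 seeds, of which 11 had at least 3 tested miRNAs. In 7 of these 11 all members were positive and in 2 all negative, on the RPM scale, where most miRNAs were positive. Of the 11, the group with the highest median was AAUACUG, with miR-200b-3p, miR-200c-3p and miR-429-3p at 0.92 to 1.68, and the lowest was ACAUUCA, the miR-181 seed, and both kept their sign after either scaling. The groups let-7 (9 of 9), miR-15/16 (6 of 6) and miR-25/92 (5 of 5) were all positive in RPM, and 6, 5 and 2 members stayed positive after median-of-ratios scaling.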

How the data were processed

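The authors sequenced small RNA of mouse hearts. Per the labels' protocols, RNA was extracted with Trizol and 3 ug of total RNA entered a NEBNext small RNA library. Bowtie, DESeq 1.8.3 and mm10 stand in the submitters' processing notes without their roles. The counting rules are not given in the sources used here. The deposited table names its columns TPM, and by its values they are RPM computed by the authors: the values hold no length term and 100% of them are whole multiples of 1 read (tolerance 0.05 reads), from which reads were recovered. The plan had called the unit TPM.

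The filter (5 RPM or more in 4 libraries or more) left 360 rows. All 20 libraries entered limma 3.58.1 (R 4.3.3) as log2(RPM + 1) with a mean per group, with and without the library profile, using a trended prior, two-sided (16 and 14 residual degrees of freedom). p-values were adjusted by Benjamini-Hochberg over the 360 with a threshold of 0.05. A limma F test with a difference per profile asked whether it varied. Profiles came from average-linkage clustering of the same values on 1 minus Pearson's r. Hairpins within 10 kb were called a cluster. Of the tested rows, 12 repeat the reads of another (within 5% in every library).

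Named miRNAs were those past the threshold, the 10 smallest p in each direction and fit with a mean of at least 10 RPM in infarcted hearts, those with all 7 MI+CIH hearts on 1 side and a mean of at least 50 RPM, the 3 most abundant of each list, the 10 most abundant, and 13 others. Cluster and seed partners and list members outside this rule were added after their values were seen. Members, lists and rules were chosen with earlier results of these data known. The alternatives tried were a pseudocount of 0.5 or of 5 RPM, no filter, a mean filter at 50 RPM, scaling by median of ratios or by TMM, quality weights, infarcted libraries alone, a replicate block, each library left out, repeats removed, and edgeR 4.0.16 and DESeq2 1.42.0 on recovered reads. The pipeline was tested on simulated data.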

Additional observations from a re-analysis of the deposited data

Results flagged for a closer look

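miR-451a in MI 3 was far from the other MI hearts: 95.7 RPM, against 669 RPM in the nearest. On the scale of log2(RPM + 1), which the rule used, the gap was 0.86 of the group's range. Of 62 sets of hearts tested (31 miRNAs in each group) only this one stood out in this way, and chance alone is expected to pick about 1 in 20. The within-profile change of miR-451a was 2.38 with MI 3 and 1.40 without it.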

How the results depend on the processing

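The within-profile count of 2 was 0 with a pseudocount of 0.5 RPM, without a filter, with a mean of at least 50 RPM (which left miR-375-3p and miR-34b-3p out of the test), with median-of-ratios scaling, with only the 11 infarcted libraries and, in a fit added after seeing the data, with profile B alone. It was 31 with quality weights (27 higher, 4 lower), 4 without MI 2, MI+CIH 1 and sham 1 (also added), and 5 with DESeq2 (miR-9-5p, its repeat, miR-208a-3p and miR-499-5p lower, miR-34c-5p higher). DESeq2 gave no adjusted p for miR-375-3p, miR-34b-3p and miR-206-3p, so that it neither kept nor lost the 2 calls. With TMM scaling and with edgeR the count was 2, miR-9-5p and its repeat, both lower. Leaving out 1 library gave 0 to 12, with 12 without MI+CIH 4, 10 without MI 1, 1 without MI 3 or MI+CIH 3, and 0 without MI 4 and without MI+CIH 5, 6 or 7. Where this leaves a profile with 1 group, that profile adds nothing to the difference, and a lone MI heart is assumed to vary like the other libraries.

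The group-mean count of 0 was 1 with quality weights (miR-206-3p), and 0 to 3 when 1 library was left out: 3 without MI+CIH 1 (miR-34b-3p, miR-34c-3p, miR-375-3p) and 1 without MI 3 (miR-206-3p). With the replicate block it was 0, and within profile also 0, where miR-375-3p was 1.54 with a limma adjusted p of 0.316. Whether numbers pair the hearts could not be decided. For deviations from the group mean, the r of MI and MI+CIH hearts of like number was -0.51, -0.33, 0.87 and -0.71. By this r 1 of 4 MI hearts correlated best with its own number. Of these pairs only MI 3 and MI+CIH 3 share a profile, so that profile and pairing cannot be told apart here. The count of miRNAs above in all 7 hearts was 16, 6 after median-of-ratios and 3 after TMM scaling. Below in all 7 were 3, 9 and 11. Of those above after these scalings, 5 of 6 and 3 of 3 were among the 16. With 1 library left out, only MI+CIH hearts that still had an MI heart in their profile were counted. Above in all of these were 17 to 52 (52 without MI 1, 45 without MI+CIH 4, 30 without MI 3, 25 without MI 4). Below in all of these were 3 to 8 (8 without MI 1 or MI 3, 7 without MI+CIH 4). Leaving out a library removes a heart or a comparison, so that these counts could not fall, and their rise is no result.

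Signs turned for 3 of the 31 miRNAs followed. miR-34a-5p between group means was -0.070 (median-of-ratios), -0.13 (TMM), -0.030 (without MI 2 and MI+CIH 1, also with sham 1 left out) and -0.27 (profile B alone), and ran from -0.14 (without MI 2) to 0.76 (without MI 1) when 1 library was left out. Within profile it was -0.076 (median-of-ratios), -0.11 (TMM), -0.030 (without MI 2 and MI+CIH 1, also with sham 1 left out), -0.27 (profile B alone), -0.026 (edgeR) and -0.015 (DESeq2), and ran from -0.030 (without MI 2 or MI+CIH 1) to 0.59 (without MI 1). miR-143-3p between group means was -0.13 (median-of-ratios) and -0.20 (TMM), ran from -0.35 (without MI 4) to 0.65 (without MI+CIH 7), and was -0.33 (edgeR) and -0.26 (DESeq2), and miR-200b-3p was -0.13 (quality weights). The cause was not tested. Depth limits the low miRNAs: 3 reads were 0.165 RPM in MI 4 and 1.51 RPM in MI+CIH 4, for counting error only.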
